A study of Mus musculus with 9 samples.

Results

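Transcript levels of 46 genes that move proteins into the endoplasmic reticulum (ER) and carry them on to the Golgi were compared between control mouse retinal explants and explants treated with 2-deoxy-D-glucose (2-DG), a glucose analog that cells take up but cannot use in glycolysis. The genes were chosen by symbol from the 55487 genes of the count table, as named subunits of the signal recognition particle and its receptor (7 genes), the Sec61 translocon with its partners (7), the TRAP complex (4), signal peptidase (5), the COPII coat (11), cargo receptors with a SNARE (6), the KDEL receptors (3) and the COPI coat (3). They were chosen with earlier results of these data known. All 46 passed the filter on low counts and were among the 21049 genes tested. The lowest counts-per-million (CPM) value of any of them in any library was 4.37, for *Kdelr3* in control replicate 2. The explants were whole retinas from C57BL/6J mice (wild-type, postnatal day 28) without the sclera and the retinal pigment epithelium, and they were kept for 48 h in medium with 5 mM glucose. The control group (5 libraries) received no 2-DG and the treated group (4 libraries) received 20 mM 2-DG. The culture protocol ends with 1 h in Krebs' Ringer medium. Retinas for RNA-seq are described as processed immediately, so whether they had this step is not clear. The labels call the libraries biological replicates but do not say whether each is 1 retina, 1 animal or a pool, so p-values measure the spread between these libraries. The question was whether the transcripts of the early secretory pathway stand at other levels when glycolysis is blocked.

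A protein that enters the secretory pathway is recognised by its signal sequence as it leaves the ribosome, is brought to the ER membrane by the signal recognition particle and threads through the Sec61 channel, where signal peptidase removes the signal sequence. COPII vesicles carry folded cargo from the ER toward the Golgi, and COPI vesicles return escaped ER residents that the KDEL receptors have caught. Photoreceptors depend on this route, since rhodopsin is inserted and folded in the ER before it is sent to the outer segment. Many genes of the route are known targets of the unfolded protein response, the programme that raises ER capacity when misfolded proteins accumulate, and 2-DG is known to interfere with N-glycosylation in the ER as well as with glycolysis.

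Depth ranged from 11318087 to 51802230 estimated counts per library. Markers of rods, the most numerous cells of this tissue, were present in every library (8 of 8 genes tested, summed level 4764 to 41430.0 CPM in the controls and 7209.5 to 15715 CPM with 2-DG). Control replicate 2 had the highest summed rod level, and 2-DG replicate 3 had pigment epithelium markers summing to 263 CPM against at most 29.2 CPM elsewhere; of its 5 markers tested, 4 were higher with 2-DG at an unadjusted p under 0.05. Control replicate 5 and 2-DG replicate 4 lay together at one end of the first principal component, with the lowest bipolar cell sums of their groups (143 and 271 CPM, others 405 to 2747 CPM) and the highest endothelial and pericyte sums (2005 and 2508 CPM). Cone markers summed to 511 CPM in control replicate 2 and 634 CPM in 2-DG replicate 3, against 37.9 to 86.1 CPM in the other 7 libraries, and these are the libraries that were lowest in their groups for most members. Of the 5 Müller glia markers, 3 were lower with 2-DG at an unadjusted p under 0.05, and the group sums overlapped (1372 to 5893 CPM in the controls, 548 to 2378 CPM with 2-DG). In the other 9 marker lists, 1 gene (fibroblast and sclera) was higher and 0 lower at that p. In bulk tissue a difference in the number of cells of a type cannot be told apart from a difference in RNA per cell, and the part of these markers in the results below was not tested.

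The 46 genes stood slightly higher in the 2-DG explants as a group, but none passed the threshold of an adjusted p of 0.05. The log2 fold change was above 0 for 44 of the 46, and the exceptions were *Sec62* (-0.07 ± 0.24) and *Sec16a* (-0.10 ± 0.18). Without control replicate 2 *Sec62* was at 0.07. The median was 0.36, against -0.01 over all genes tested, of which 49.2% were above 0. Among the 11243 genes with a mean of at least 10 CPM, a background set after the data were seen because it is nearer to the level of the members, the median was 0.10 and 62.4% were above 0. With edgeR's quasi-likelihood test, 0 members and 0 of all genes (percent called 0.0) had an adjusted p under 0.05, and the adjusted p of the members ran from 0.524 to 0.968. At an unadjusted p under 0.05, 12 members were higher and 0 lower. This is 26.1% higher, against 2.42% of all genes and 3.28% of the genes with at least 10 CPM; of all genes, 4.83% were lower. Under other tools, 3 members were higher at an adjusted p under 0.05 with DESeq2 (*Sec61a1*, *Ssr2* and *Tram1*; 0.38% of all genes), 3 with 2 surrogate variables (*Sec61a1*, *Sec61b* and *Surf4*; 1.05%), 2 with limma-voom and sample quality weights (*Sec61a1* and *Sec61b*; 1.54%), and 0 with unweighted limma-voom (0.0%). For 12 members every 2-DG library lay above every control library (26.1%, against 1.52% of all genes and 2.33% of those with at least 10 CPM), and for 0 members every 2-DG library lay below (1.41% of all genes). For 9 members both held, namely *Srprb*, *Sec61a1*, *Tram1*, *Ssr2*, *Ssr3*, *Spcs3*, *Sec24d*, *Tmed10* and *Kdelr1* (1.04% of all genes).

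**Figure D1:**
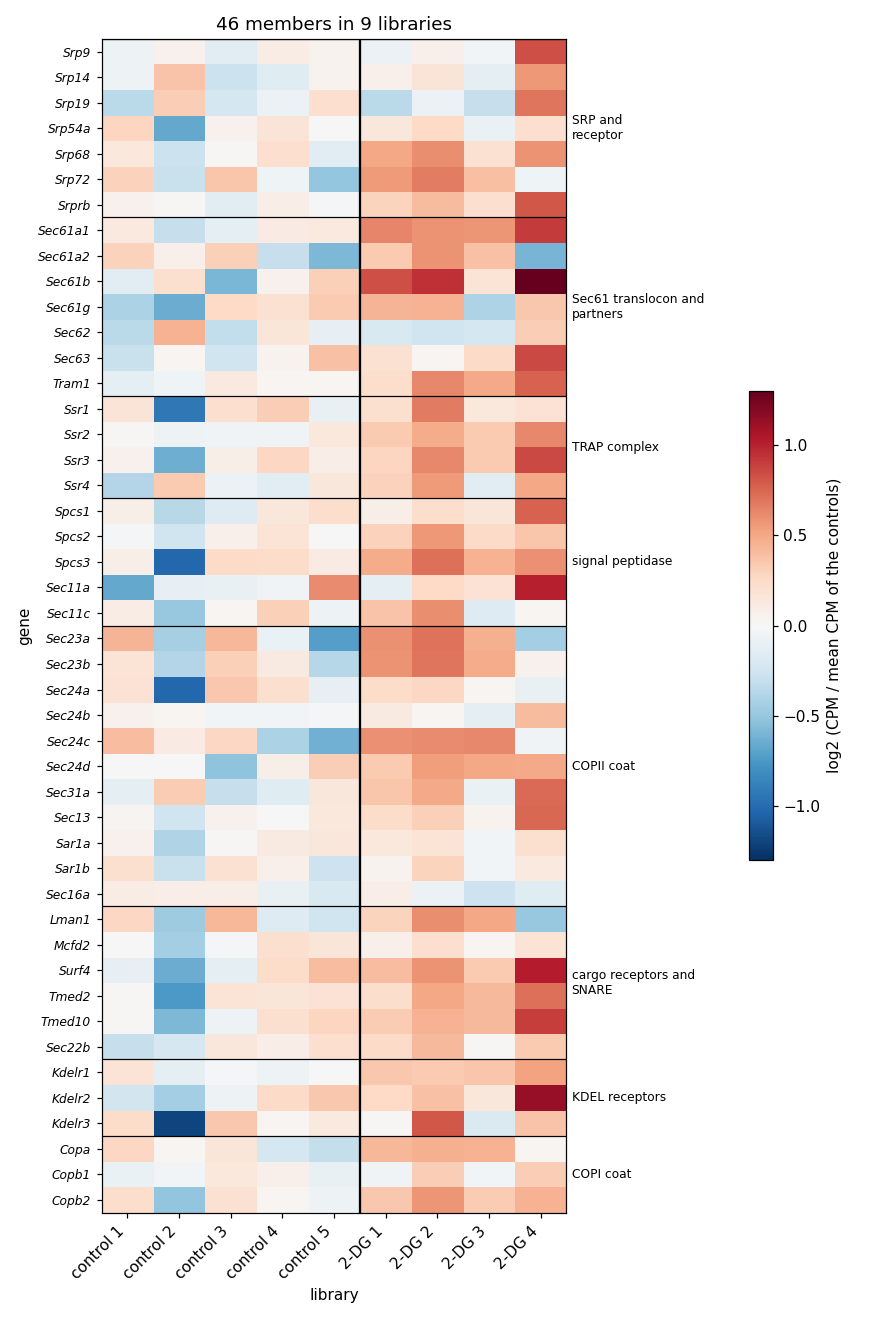
Level of each of the 46 genes (rows, grouped by role) in each of the 9 libraries (columns), as log2 of CPM over the mean CPM of the 5 controls, with red above and blue below that mean. The 2-DG columns are mostly red, control replicate 2 holds most of the darker blue cells, and the row of *Sec61b* is darkest in 2-DG replicate 4.

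The libraries did not contribute evenly. The median of the 46 genes over the control mean, on the log2 scale, was 0.05, -0.27, 0.04, 0.07 and 0.05 in control replicates 1 to 5 and 0.29, 0.47, 0.18 and 0.47 in 2-DG replicates 1 to 4. Control replicate 2 was the lowest control for 25 of the 46 genes, 2-DG replicate 3 was the lowest 2-DG library for 25, and 2-DG replicates 2 and 4 were the highest 2-DG libraries for 21 and 23. Every control was exceeded for 26, 36, 19 and 31 members by 2-DG replicates 1 to 4. With control replicate 2 and 2-DG replicate 3 both left out, 12 members were again higher at an unadjusted p under 0.05 (2.9% of all genes) and the median was 0.36. With control replicate 5 and 2-DG replicate 4 both left out, 7 were higher (3.02% of all genes), 41 of 46 had a log2 fold change above 0 and the median was 0.30. Without 2-DG replicate 2 the count of members higher at an unadjusted p under 0.05 was 4 (1.82% of all genes), without control replicate 1 it was 6 (2.2%), and without control replicate 3 or 2-DG replicate 4 it was 7 (2.39% and 3.38%). Of the 9 libraries, 2-DG replicate 4 had the lowest TMM scaling factor, 0.820 (others 0.945 to 1.09). On library size alone 5 members were higher at an unadjusted p under 0.05 (1.39% of all genes), and the median was 0.30 beside -0.07 over all genes. The number of members called thus moved with single libraries and with the scaling. The median log2 fold change stayed between 0.30 and 0.42 when any 1 library was left out. It moved with the scaling too, to 0.28 with upper-quartile scaling, beside -0.09 over all genes. Single members were less steady. For 24 of the 46, leaving out 1 library moved the log2 fold change by over 1.5 times, and for 4 of these, *Srp9*, *Srp19*, *Sec62* and *Sec24a*, it turned the sign. The library was 2-DG replicate 4 for 15 members, control replicate 2 for 13 and 2-DG replicate 2 for 10, and some members moved with more than 1 library. Over all alternatives run, 32 members moved by over 1.5 times and 6 turned in sign, *Sec24b* and *Sec16a* in addition to these. Of the 12 members with an unadjusted p under 0.05, 0 moved so far when 1 library was left out and 4 did under another alternative. *Srprb* was at 0.28 without control replicate 5 and 2-DG replicate 4, *Ssr3* and *Tmed10* were at 0.31 and 0.33 with sample quality weights, and *Sec24d* was at 0.77 from sums of transcripts.

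**Figure D2:**
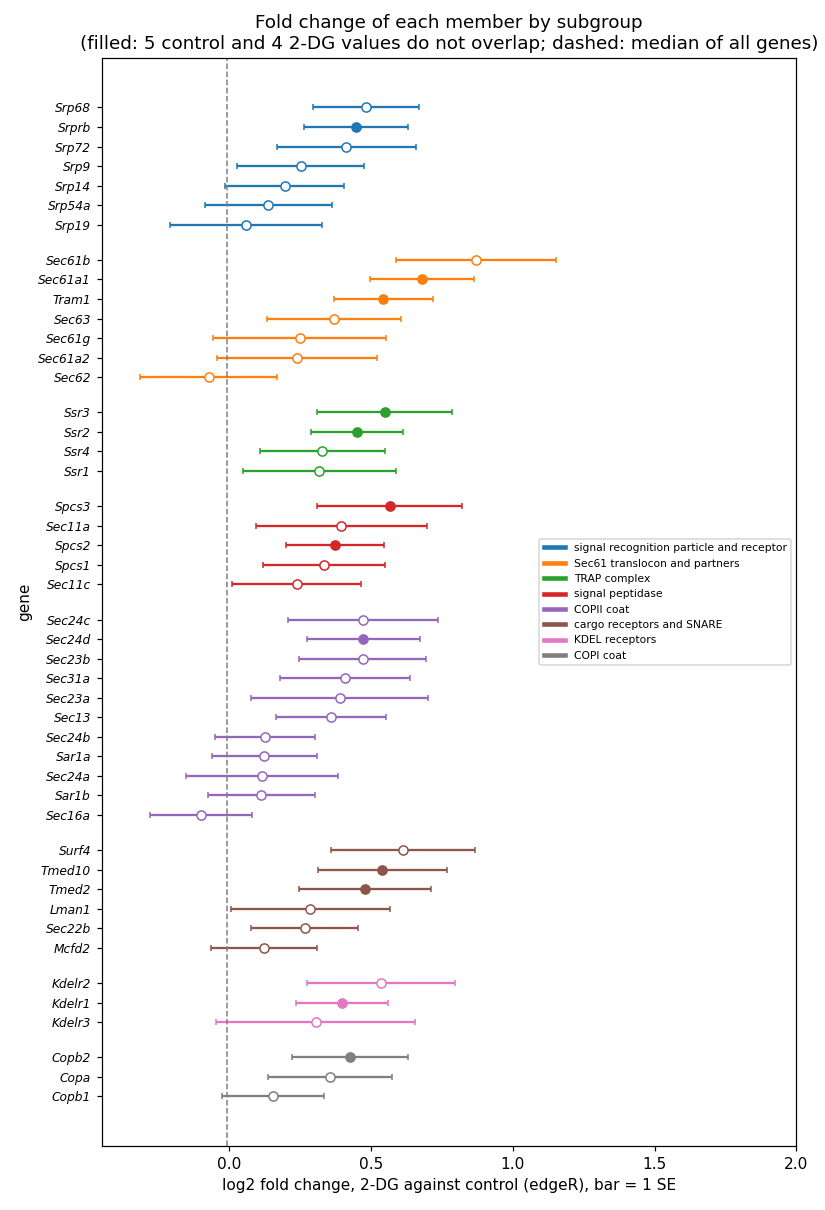
Log2 fold change of each member between 2-DG and control (horizontal axis, edgeR) with 1 SE on either side, by role. The dashed line is the median of all genes tested, -0.01; filled circles mark the 12 genes whose 2-DG values all lie above all control values, and *Sec62* and *Sec16a* are the only points left of 0.

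The sequences before the gene starts are shown because unfolded protein response factors are known to bind short elements there. RefSeq promoters on GRCm38.p6, 250 bases before to 50 after the start, were matched for 36 of the 46 members. *Srp19*, *Srp68*, *Sec61a1*, *Tram1*, *Ssr2*, *Spcs3*, *Sec11c*, *Lman1*, *Tmed2* and *Kdelr2* had no entry. The ER stress response element (ERSE), which is CCAAT and CCACG separated by 9 bases of any kind, on either strand, was in 0 of the 36 member promoters, in 0.137% of the 27025 genes with a promoter, and in 7 of 13 ER chaperone promoters. Its variant ERSE-II, ATTGG and CCACG separated by 1 base, was in 0 of the 36, in 0.0444% of all genes and in 1 of the 13 chaperones. The unfolded protein response element (UPRE), TGACGTGG on either strand, was in 5 of the 36 member promoters (13.9%), in 4 of 77 promoters of other genes of the route (5.19%), in 0 of 27 of post-Golgi coats, in 0.714% of all genes and in 0 of the 13 chaperones. ERSE and ERSE-II end in CCACG, which is also part of the UPRE read on its other strand, so matches could overlap. The 5 members are *Sec24d*, *Sec23a*, *Copb1*, *Copb2* and *Kdelr3* of the vesicle coats and the retrieval route, and no matched member of targeting, translocation or signal peptidase is among them. Each is printed 5′ to 3′ on the strand of its gene, from 60 bases before the element to its end, with the element in capitals.
Sec24d: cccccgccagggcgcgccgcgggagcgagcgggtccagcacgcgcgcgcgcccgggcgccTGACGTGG
Sec23a: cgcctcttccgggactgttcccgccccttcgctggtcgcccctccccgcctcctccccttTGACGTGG
Copb1: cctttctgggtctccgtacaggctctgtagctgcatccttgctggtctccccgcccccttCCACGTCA
Copb2: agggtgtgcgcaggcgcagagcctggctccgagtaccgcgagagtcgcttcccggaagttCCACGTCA
Kdelr3: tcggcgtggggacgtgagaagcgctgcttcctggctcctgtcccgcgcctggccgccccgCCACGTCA
For comparison, 30 bases upstream of the chaperone *Hspa5* show an ERSE, with its fixed letters in capitals.
Hspa5: tagcgacttcaCCAATcggaggcctCCACG
These stretches are chr3:123267410-123267477 for *Sec24d* (plus strand), chr12:59012004-59012071 for *Sec23a* (minus), chr7:114254701-114254768 for *Copb1* (minus), chr9:98563664-98563731 for *Copb2* (plus), chr15:79516318-79516385 for *Kdelr3* (plus) and chr2:34772014-34772043 for *Hspa5* (plus). Counted from the RefSeq start, the element begins at position -26 in *Sec24d*, 7 in *Sec23a*, -28 in *Copb1*, -7 in *Copb2* and -30 in *Kdelr3*. In the GENCODE M21 annotation the gene models of all but *Kdelr3* begin upstream of the element, so these matches lie in or beside a first exon. It lies on the strand of the gene in *Sec24d* and *Sec23a* and on the other strand in *Copb1*, *Copb2* and *Kdelr3*. The log2 fold changes of these 5 genes were 0.47 ± 0.20, 0.39 ± 0.31, 0.15 ± 0.18, 0.43 ± 0.20 and 0.30 ± 0.35 (SE) in the printed order, and the groups did not overlap in *Sec24d* and *Copb2*. Over all alternatives *Sec24d* ranged from 0.36 to 0.77, *Sec23a* from 0.16 to 0.59, *Copb1* from 0.04 to 0.22, *Copb2* from 0.32 to 0.49 and *Kdelr3* from 0.09 to 0.44. A match of letters is a description of the sequence, and binding was not measured.

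Targeting to the ER came first in the pathway and showed the smallest median among the 8 groups, 0.25, with all 7 log2 fold changes above 0 when every library was kept. *Srprb* (chr9:103188032-103202137 on GRCm38) encodes the beta subunit of the receptor that docks the particle at the ER membrane. *Srprb* stood at 81.8, 79.5, 71.0, 83.8 and 78.2 CPM in control replicates 1 to 5 and at 96.2, 105, 91.6 and 138 CPM in 2-DG replicates 1 to 4. The 2-DG libraries all lay above the controls, with replicate 4 well above the rest (log2 fold change 0.45 ± 0.18 (SE), edgeR unadjusted p = 0.0334, adjusted p = 0.656). *Srp68* (chr11:116245166-116274217) encodes a scaffold subunit that binds the 7S RNA together with the product of *Srp72*. *Srp68* stood at 97.7, 73.1, 89.5, 103 and 80.2 CPM in control replicates 1 to 5 and at 126.04, 135, 101 and 133 CPM in 2-DG replicates 1 to 4. The 2-DG group was higher, and its replicate 3 overlapped the highest control (log2 fold change 0.48 ± 0.19 (SE), edgeR unadjusted p = 0.0260, adjusted p = 0.636). *Srp72* had 117 ± 29.9 CPM (SD, n = 5) in the controls and 156 ± 31.8 CPM (SD, n = 4) with 2-DG, with a log2 fold change of 0.41 ± 0.25. The small subunits of the Alu domain, *Srp9* and *Srp14*, which pause elongation, had log2 fold changes of 0.25 ± 0.22 and 0.19 ± 0.21, which came to -0.01 and 0.05 without 2-DG replicate 4, and *Srp14* was at 0.30 without control replicate 2 and 0.12 without control replicate 4. For *Srp9*, 2-DG replicate 4 stood alone at 83.4 CPM, and the other 2-DG libraries (44.3 to 48.9 CPM) lay within the controls (42.1 to 49.9 CPM). *Srp54a*, the GTPase that holds the signal sequence, had 0.14 ± 0.22, and since *Srp54b* and *Srp54c* are near-identical copies that may share its reads, the value of each copy is uncertain. *Srp54a* was at 0.21 without control replicate 1 or 2-DG replicate 3 and at 0.01 without control replicate 2. *Srp19*, an assembly subunit, had 0.06 ± 0.27, and leaving out any 1 library moved it by over 1.5 times, from -0.24 (without 2-DG replicate 4) to 0.18 (without 2-DG replicate 1). Among the other alternatives, *Srp72* was at 0.27 with 2 surrogate variables and *Srprb* at 0.28 without control replicate 5 and 2-DG replicate 4. Over all alternatives *Srp9* ranged from -0.03 to 0.36, *Srp14* from 0.03 to 0.40, *Srp19* from -0.24 to 0.26 and *Srp54a* from 0.01 to 0.21.

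The Sec61 channel held both the smallest p and the largest fold change of the 46 genes. Its pore is formed by the alpha subunit, which *Sec61a1* (chr6:88503579-88518905) encodes. *Sec61a1* stood at 117, 87.7, 99.3, 116 and 118 CPM in control replicates 1 to 5 and at 167, 161, 159.6 and 201 CPM in 2-DG replicates 1 to 4. The lowest 2-DG library exceeded the highest control by a wide margin, and the log2 fold change was 0.68 ± 0.18 (SE; edgeR unadjusted p = 0.00381, the smallest of the 46, adjusted p = 0.524). The adjusted p ran from 0.00773 to 0.985 over the alternatives, below 0.05 with DESeq2, sample quality weights and 2 surrogate variables, and the log2 fold change ran from 0.59 to 0.72. *Sec61b* (chr4:47474658-47483242), named here after its values were seen because its fold change was the largest of the 46, encodes the beta subunit that contacts the receptor and the ribosome. *Sec61b* stood at 12.5, 15.9, 9.09, 14.3 and 17.0 CPM in control replicates 1 to 5 and at 24.6, 26.5, 15.5 and 33.9 CPM in 2-DG replicates 1 to 4. The groups overlapped, since 2-DG replicate 3 lay within the controls (log2 fold change 0.87 ± 0.28 (SE), edgeR unadjusted p = 0.0105, adjusted p = 0.554). *Tram1* (chr1:13564698-13589910) encodes a membrane protein that sits beside the channel and aids the entry of some nascent chains. *Tram1* stood at 48.5, 51.0, 58.0, 53.9 and 54.0 CPM in control replicates 1 to 5 and at 62.3, 82.1, 74.7 and 90.2 CPM in 2-DG replicates 1 to 4. The controls were tight and all 2-DG libraries lay above them, with replicate 1 nearest (log2 fold change 0.54 ± 0.17 (SE), edgeR unadjusted p = 0.0104, adjusted p = 0.553). The remaining translocon genes overlapped between the groups. The gamma subunit *Sec61g* had 0.25 ± 0.30, the paralog of the pore *Sec61a2* 0.24 ± 0.28, and the accessory subunits of post-translational import *Sec63* and *Sec62* 0.37 ± 0.24 and -0.07 ± 0.24. All 4 values rested on single libraries. *Sec61g* was at 0.16 without control replicate 1, 0.12 without control replicate 2 and 0.42 without 2-DG replicate 3, and *Sec63* at 0.16 without 2-DG replicate 4. *Sec62* turned in sign, to 0.07, without control replicate 2 and was at -0.23 without 2-DG replicate 4, and of the other libraries only control replicate 4 moved it by less than 1.5 times. *Sec61a2* was at 0.15 without control replicate 4, 0.11 without control replicate 5 or 2-DG replicate 2, and 0.44 without 2-DG replicate 4, and over all alternatives it ranged from 0.08 to 0.48 and *Sec62* from -0.29 to 0.12. On a scale per length (transcripts-per-million, TPM, from the transcript counts and annotated lengths), the control level was 79.6 ± 18.0 for *Sec61a1*, 74.3 ± 28.5 for *Sec61a2*, 49.7 ± 5.53 for *Sec61b* and 27.8 ± 8.83 for *Sec61g* (SD, n = 5). *Sec61a1* and *Sec61a2* differed by less than their spread, and *Sec61g* lay below *Sec61b* by more than the SD of either; short transcripts such as these are less certain, because the annotated and not the effective length was used.

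The TRAP complex, which joins the channel and the ribosome and eases the entry of some signal sequences, had log2 fold changes above 0 in all 4 subunits, with a median of 0.39. *Ssr2* stood at 70.3, 66.8, 67.5, 67.4 and 76.8 CPM in control replicates 1 to 5 and at 88.5, 97.1, 88.1 and 108 CPM in 2-DG replicates 1 to 4. The 2-DG libraries all exceeded the controls of this beta subunit gene (chr3:88575876-88588419; log2 fold change 0.45 ± 0.16 (SE), edgeR unadjusted p = 0.0185, adjusted p = 0.608). *Ssr3* stood at 212, 132, 215, 245 and 216 CPM in control replicates 1 to 5 and at 248, 315, 259 and 370.4 CPM in 2-DG replicates 1 to 4. Control replicate 2 was far below the other controls, and the nearest values across the groups, control replicate 4 and 2-DG replicate 1, differed little (chr3:65379655-65392623; log2 fold change 0.55 ± 0.24 (SE), edgeR unadjusted p = 0.0420, adjusted p = 0.682). *Ssr4* and *Ssr1* overlapped between the groups, with 0.33 ± 0.22 and 0.32 ± 0.27, and *Ssr1* was at 0.15 without control replicate 2 and 0.18 without 2-DG replicate 2. *Ssr3* was at 0.31 with sample quality weights, and *Ssr4* at 0.56 without control replicate 2 and 2-DG replicate 3. The subunits, which form a complex together, differed in level per length, with 147 ± 44.6, 139 ± 23.6, 112 ± 11.5 and 53.3 ± 21.3 TPM for *Ssr3*, *Ssr2*, *Ssr4* and *Ssr1* in the controls (SD, n = 5). *Ssr3* and *Ssr2* differed by less than their spread, and each further step was larger than the SD of either neighbour.

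Signal peptidase cuts the signal sequence from the nascent chain. The median log2 fold change of its 5 genes was 0.37, with all 5 above 0. *Spcs3* (chr8:54520433-54529998) encodes an accessory subunit that the mammalian enzyme needs. *Spcs3* stood at 48.9, 22.8, 55.1, 54.7 and 50.02 CPM in control replicates 1 to 5 and at 64.9, 75.9, 63.6 and 69.98 CPM in 2-DG replicates 1 to 4. The groups did not overlap, and the control mean was pulled down by replicate 2 (log2 fold change 0.57 ± 0.26 (SE), edgeR unadjusted p = 0.049985, adjusted p = 0.689). This unadjusted p lies only just under 0.05. Without control replicate 2 its log2 fold change was 0.39. *Spcs2* stood at 85.0, 71.9, 89.6, 97.0 and 85.4 CPM in control replicates 1 to 5 and at 106, 127, 102 and 109.93 CPM in 2-DG replicates 1 to 4. The 2-DG libraries of this subunit gene (chr7:99837569-99863462) again lay above all controls, while the test missed the unadjusted threshold (log2 fold change 0.37 ± 0.17 (SE), edgeR unadjusted p = 0.0553, adjusted p = 0.692). *Spcs1* had 0.33 ± 0.21, and 0.16 without 2-DG replicate 4. The catalytic subunits *Sec11a* and *Sec11c*, alternatives of each other, had 0.40 ± 0.30 and 0.24 ± 0.23, and overlapped between the groups. *Sec11a* was at 0.12 without 2-DG replicate 4, and *Sec11c* at 0.14 without control replicate 2 and 0.10 without 2-DG replicate 2. Over all alternatives *Spcs1* ranged from 0.12 to 0.42, *Sec11a* from 0.12 to 0.59 and *Sec11c* from 0.10 to 0.42.

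The COPII coat buds vesicles from the ER. Its GTPase Sar1 recruits the inner layer of Sec23 and Sec24, the cargo adaptor, and the outer cage of Sec13 and Sec31 assembles on it. Of the 11 genes, 10 had a log2 fold change above 0 and the median was 0.36, but only *Sec24d* passed an unadjusted p of 0.05 (9.09%, against 2.42% of all genes). *Sec24d* stood at 35.7, 35.6, 24.7, 37.4 and 44.5 CPM in control replicates 1 to 5 and at 45.2, 51.9, 50.4 and 49.9 CPM in 2-DG replicates 1 to 4. All 2-DG libraries lay above the controls, narrowly over control replicate 5 (chr3:123267455-123365641; log2 fold change 0.47 ± 0.20 (SE), edgeR unadjusted p = 0.0382, adjusted p = 0.672), and its gene start carries the UPRE printed above. *Sec23b* (chr2:144556229-144590749) had 82.7 ± 17.8 CPM (SD, n = 5) in the controls and 115 ± 20.7 CPM (SD, n = 4) with 2-DG, and the groups overlapped (log2 fold change 0.47 ± 0.22 (SE), edgeR unadjusted p = 0.0597, adjusted p = 0.701). *Sec24c* and *Sec23a* had 0.47 ± 0.26 and 0.39 ± 0.31, and *Sec23a* was at 0.25 without control replicate 5 and 0.59 without 2-DG replicate 4. In *Sec24c*, 2-DG replicates 1 to 3 agreed at 199.97 to 204 CPM, above every control, and replicate 4 was at 128 CPM. The outer cage genes *Sec31a* and *Sec13* had 0.41 ± 0.23 and 0.36 ± 0.19, and *Sec13* was at 0.20 without 2-DG replicate 4. The remaining COPII genes had smaller log2 fold changes, 0.12 ± 0.18 for *Sec24b*, 0.12 ± 0.19 for *Sar1a*, 0.12 ± 0.27 for *Sec24a*, 0.11 ± 0.19 for *Sar1b* and -0.10 ± 0.18 for *Sec16a*, which marks the ER exit sites. Without control replicate 2 the values of *Sar1a* and *Sar1b* were 0.04 and 0.05, and *Sar1b* was at 0.04 without control replicate 5 and 0.05 without 2-DG replicate 2. *Sec24a* turned in sign, to -0.06, without control replicate 2, and was at 0.22 without control replicate 3 and at 0.06 or 0.18 when 2-DG replicate 2 or 4 was dropped. *Sec24b* was at 0.08 without control replicate 4 and at 0.20 or 0.01 when 2-DG replicate 3 or 4 was dropped. *Sec16a* was at -0.04 without 2-DG replicate 3, and at -0.15 to -0.16 without control replicate 4 or 5 or 2-DG replicate 1. Among the other alternatives, *Sec24d* was at 0.77 from sums of transcripts, *Sec23a* at 0.16 with 2 surrogate variables and *Sec31a* at 0.64 without control replicate 2 and 2-DG replicate 3. Over all alternatives *Sec13* ranged from 0.20 to 0.45, *Sar1a* from 0.04 to 0.18, *Sar1b* from 0.03 to 0.17, *Sec24a* from -0.07 to 0.22, *Sec24b* from -0.01 to 0.21 and *Sec16a* from -0.18 to 0.05. Per length, the 4 Sec24 adaptors fell in 2 levels in the controls (SD, n = 5). *Sec24b* (90.9 ± 18.0 TPM) and *Sec24c* (84.4 ± 33.6 TPM) lay above *Sec24a* (24.4 ± 10.5 TPM) and *Sec24d* (20.1 ± 2.81 TPM). *Sec24b* and *Sec24c* differed by less than the SD of either. *Sec24a* and *Sec24d* differed by less than the SD of *Sec24a* but by more than that of *Sec24d*.

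**Figure D3:**
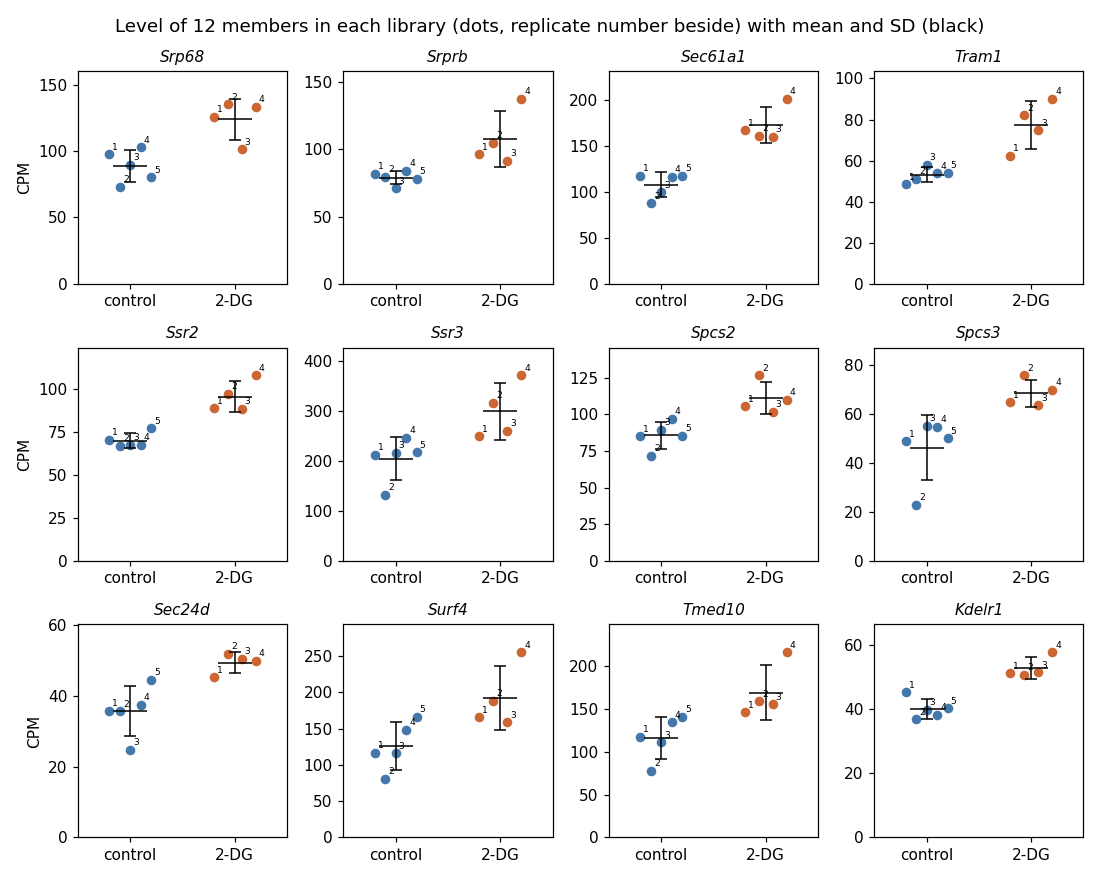
CPM of 12 members in the 5 control (blue) and 4 2-DG (orange) libraries, with the replicate number at each dot and the group mean and SD in black; each vertical axis starts at 0. The panels other than *Srp68* and *Surf4* show no overlap between the groups and 2-DG replicate 4 is the highest dot in *Srprb*, *Sec61a1*, *Tram1*, *Ssr2*, *Ssr3*, *Surf4*, *Tmed10* and *Kdelr1*.

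Cargo receptors load soluble or anchored proteins into these vesicles. *Surf4* (chr2:26920040-26933928) encodes a receptor for many soluble secreted proteins. *Surf4* stood at 117, 80.5, 116, 149 and 166.5 CPM in control replicates 1 to 5 and at 165.9, 188, 159 and 255 CPM in 2-DG replicates 1 to 4. The groups overlapped at control replicate 5, which exceeded 2-DG replicates 1 and 3 (log2 fold change 0.61 ± 0.25 (SE), edgeR unadjusted p = 0.0355, adjusted p = 0.664). *Tmed10* (chr12:85340614-85374847) encodes a p24 protein that cycles between the ER and Golgi. *Tmed10* stood at 117, 77.5, 111, 134 and 141 CPM in control replicates 1 to 5 and at 146, 159, 155 and 216 CPM in 2-DG replicates 1 to 4. The highest control and the lowest 2-DG library were close, with no overlap (log2 fold change 0.54 ± 0.23 (SE), edgeR unadjusted p = 0.0375, adjusted p = 0.669). Its partner *Tmed2* had 133 ± 30.7 CPM (SD, n = 5) in the controls and 185 ± 26.0 CPM (SD, n = 4) with 2-DG, with no overlap and a log2 fold change of 0.48 ± 0.23. *Lman1* and *Mcfd2*, whose products form a receptor for glycoproteins such as coagulation factors, had 0.29 ± 0.28 and 0.12 ± 0.19, and the SNARE *Sec22b* had 0.27 ± 0.19. *Mcfd2* was at 0.03 without control replicate 2, and *Lman1* at 0.19 without it and at 0.17 or 0.47 when 2-DG replicate 2 or 4 was dropped. In *Lman1*, 2-DG replicate 4 (105 CPM) was lower than every control, while the other 2-DG libraries lay at 179.7 to 223 CPM.

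The KDEL receptors bind the C-terminal signal of ER chaperones in the Golgi and return them. *Kdelr1* stood at 45.3, 36.9, 39.8, 38.3 and 40.3 CPM in control replicates 1 to 5 and at 51.2, 50.8, 51.6 and 57.8 CPM in 2-DG replicates 1 to 4. Both groups were tight and did not overlap (chr7:45872772-45883732; log2 fold change 0.40 ± 0.16 (SE), edgeR unadjusted p = 0.0331, adjusted p = 0.656). *Kdelr2* (chr5:143403838-143421901) had 37.8 ± 8.54 CPM (SD, n = 5) in the controls and 54.7 ± 19.0 CPM (SD, n = 4) with 2-DG; its 2-DG replicate 4, at 82.9 CPM, lay apart from the others, and control replicates 4 and 5 overlapped the rest (log2 fold change 0.54 ± 0.26 (SE), edgeR unadjusted p = 0.0673, adjusted p = 0.712). Without 2-DG replicate 4 its log2 fold change was 0.26. *Kdelr3* had 9.97 ± 3.27 CPM (SD, n = 5) in the controls and 12.3 ± 3.87 CPM (SD, n = 4) with 2-DG and a log2 fold change of 0.30 ± 0.35, which was 0.11 without control replicate 2 and 0.09 without 2-DG replicate 2. Over all alternatives *Kdelr2* ranged from 0.25 to 0.65 and *Kdelr3* from 0.09 to 0.44. Per length the 3 receptors were ordered *Kdelr1* (64.5 ± 14.7 TPM), *Kdelr2* (42.4 ± 9.83 TPM) and *Kdelr3* (15.1 ± 6.68 TPM; SD, n = 5) in the controls, and each step was larger than the SD of either neighbour. With sample quality weights *Tmed10* and *Tmed2* were at 0.33 and 0.25. Over all alternatives *Lman1* ranged from 0.07 to 0.47 and *Mcfd2* from 0.03 to 0.18.

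Of the COPI coat, which buds the returning vesicles, 3 subunit genes were members and 0 passed an unadjusted p of 0.05. *Copb2* (chr9:98563721-98588382), the beta-prime subunit, had 139 ± 26.4 CPM (SD, n = 5) in the controls and 186 ± 14.5 CPM (SD, n = 4) with 2-DG, and all 2-DG libraries lay above the controls (log2 fold change 0.43 ± 0.20 (SE), edgeR unadjusted p = 0.0614, adjusted p = 0.704). *Copa* (chr1:172082529-172122330), the alpha subunit, had 311 ± 53.1 CPM (SD, n = 5) in the controls and 398 ± 54.3 CPM (SD, n = 4) with 2-DG (log2 fold change 0.35 ± 0.22 (SE), edgeR unadjusted p = 0.133, adjusted p = 0.767). *Copb1*, the beta subunit, had 0.15 ± 0.18, and 0.09 without 2-DG replicate 2 or 4, with a range of 0.04 to 0.22 over all alternatives. *Copa* belongs to 5 genes that were lowest both in control replicate 5 among the controls and in 2-DG replicate 4 among the 2-DG libraries, the others being *Srp72*, *Sec61a2*, *Sec23a* and *Sec24c*. These are the 2 libraries with the lowest bipolar cell sums, and the part of that in the spread of these genes was not tested. Several members share exon bases with a neighbour on the other strand (for example *Copa* with *Ncstn*, *Surf4* with *Surf2*, *Spcs1* with *Glt8d1*, and *Sec61a2* with *Nudt5*), and whether the counting used strand is not given in the sources used here. *Srprb* and *Sec11a* share exon bases with *Gm20425* and *Nmb* on the same strand, so their counts are less certain.

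Paralogs were set against each other within each library, as a ratio on which the scaling of the library has little effect. The log2 ratio of *Sec61a1* to *Sec61a2* was 0.94, 0.76, 0.69, 1.52 and 1.82 in control replicates 1 to 5 and 1.41, 1.11, 1.31 and 2.62 in 2-DG replicates 1 to 4. The groups overlapped and 2-DG replicate 4 stood highest, so the difference of 0.47 between the means was within the spread (exact two-sided permutation test, p = 0.294, adjusted over 6 ratios 0.984). The differences for *Sec11c* to *Sec11a*, *Sec23b* to *Sec23a*, *Sec24d* to *Sec24c*, *Sar1b* to *Sar1a* and *Kdelr2* to *Kdelr1* were -0.16, 0.08, -0.01, -0.01 and 0.11, none beyond the spread of the libraries (exact permutation p from 0.651 to 0.984, all adjusted to 0.984). The smallest p that 5 against 4 libraries can give is 0.00794. Without 2-DG replicate 4 the difference for *Sec61a1* to *Sec61a2* was 0.13. A shift between paralogs was not detectable, and with SDs of 0.09 to 0.69 on the log2 scale, small shifts would not have been seen.

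**Figure D4:**
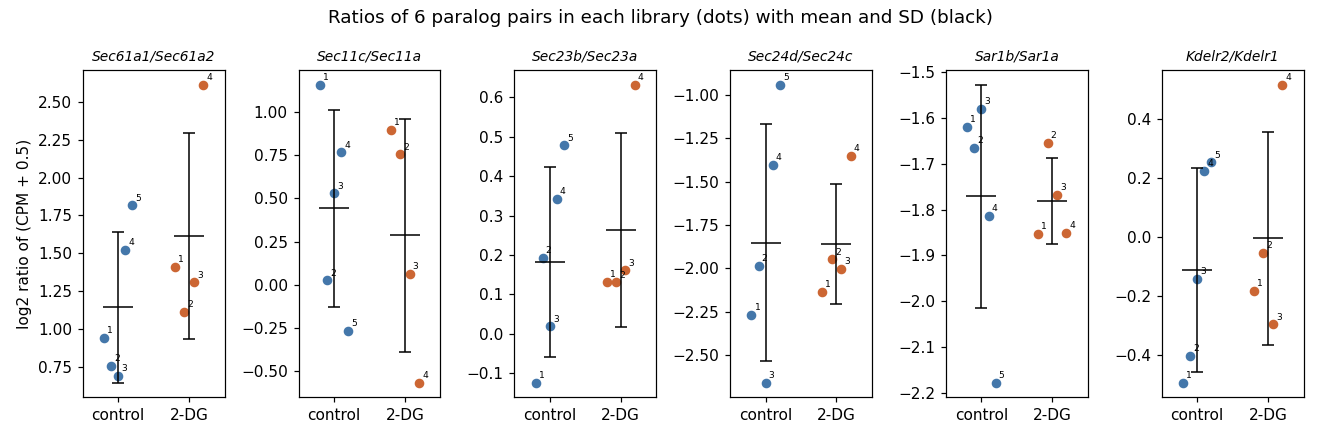
Log2 ratio of CPM + 0.5 for 6 pairs of paralogs in the 5 control (blue) and 4 2-DG (orange) libraries, with the replicate number beside each dot and mean and SD in black; each panel has its own vertical axis. In all 6 panels the groups overlap, and 2-DG replicate 4 is the highest dot for *Sec61a1*/*Sec61a2*, *Sec23b*/*Sec23a* and *Kdelr2*/*Kdelr1*.

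The transcript table showed which isoform carried each gene. Of 286 annotated transcripts of the 46 genes, 216 were tested among 62900, and 0 passed an adjusted p of 0.05 with edgeR or with DESeq2 (smallest adjusted p with edgeR 0.9996). At an unadjusted p under 0.05, 13 were higher and 3 lower with edgeR (6.02% higher, against 1.17% higher and 2.28% lower of all transcripts), and 15 were higher and 3 lower with DESeq2 (2.04% and 3.47% of all transcripts). For 11 the 2-DG libraries all lay above the controls, against 0.898% of all transcripts. The most abundant transcript of every member was protein coding, and 41 of these 46 had a log2 fold change above 0 (median 0.33). *Sec24c-201* stood at 96.8, 65.6, 102, 91.1 and 94.5 CPM in control replicates 1 to 5 and 139.7, 135, 126.10 and 147 CPM in 2-DG replicates 1 to 4. All 4 treated libraries lay above the controls (log2 fold change 0.61 ± 0.20 (SE), edgeR unadjusted p = 0.0129, adjusted p = 0.9996), in contrast to the overlap of the *Sec24c* gene counts. Its share of the gene's transcript counts was 66.5%, 43.04%, 72.2%, 79.0% and 79.9% in control replicates 1 to 5 and 82.5%, 74.6%, 73.6% and 88.0% in 2-DG replicates 1 to 4. The shares overlapped between the groups, with control replicate 2 lowest and 2-DG replicate 4 highest. *Sec24d-201* stood at 28.7, 28.3, 28.4, 34.6 and 45.1 CPM in control replicates 1 to 5 and 49.8, 47.7, 62.2 and 63.4 CPM in 2-DG replicates 1 to 4, again without overlap (log2 fold change 0.76 ± 0.24 (SE), edgeR unadjusted p = 0.00930, adjusted p = 0.9996). *Kdelr1-201* also did not overlap (log2 fold change 0.62 ± 0.26 (SE), edgeR unadjusted p = 0.0388, adjusted p = 0.9996). *Sec61a1-201*, *Tram1-201* and *Sec61b-201*, the leading transcripts of their genes, had log2 fold changes of 0.62 ± 0.26, 0.56 ± 0.22 and 0.79 ± 0.35, each with overlapping groups. Lower at an unadjusted p under 0.05 were *Sec61a2-209*, with 12.6 ± 6.81 CPM (SD, n = 5) in the controls and 4.81 ± 2.35 CPM (SD, n = 4) with 2-DG, and the minor *Sec11c-211* and *Sec24d-208*. The division of reads between isoforms has an error of its own that these tests do not hold.

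Genes of the same route outside the 46 were listed by role and had a smaller median. Of 91, all tested, 78 had a log2 fold change above 0, with a median of 0.16, and 0 had an adjusted p under 0.05 with edgeR. Over the alternatives this median ran from 0.08 (upper-quartile scaling) to 0.24 (without control replicate 2 and 2-DG replicate 3), with 63 (median 0.11, without control replicate 5 and 2-DG replicate 4) to 81 of the 91 above 0. The median of the members ran from 0.28 to 0.42 and was the larger in each alternative. Both lists were chosen with earlier results of these data known, and every alternative used the same lists. At an unadjusted p under 0.05, 6 were higher (6.59%, against 2.42% of all genes) and 0 lower. The count with an adjusted p under 0.05 was 3 with DESeq2, 4 with 2 surrogate variables and 5 with sample quality weights. Of all genes, 0.38%, 1.05% and 1.54% were higher at that adjusted p in the same order. *Get3*, the targeting ATPase for tail-anchored proteins, stood at 68.0, 63.7, 57.4, 62.0 and 63.5 CPM in control replicates 1 to 5 and at 94.2, 93.3, 91.3 and 109.99 CPM in 2-DG replicates 1 to 4. Its groups were far apart for their spread (log2 fold change 0.63 ± 0.16 (SE), edgeR unadjusted p = 0.00267, adjusted p = 0.524). *Tmed3*, another p24 protein, stood at 24.6, 20.7, 22.1, 20.1 and 22.2 CPM in control replicates 1 to 5 and at 32.7, 34.97, 31.7 and 36.3 CPM in 2-DG replicates 1 to 4. These were also separate (log2 fold change 0.63 ± 0.17 (SE), edgeR unadjusted p = 0.00436, adjusted p = 0.524). *Arfgap3*, which triggers the release of the COPI coat, had 20.0 ± 4.52 CPM (SD, n = 5) in the controls and 36.2 ± 6.91 CPM (SD, n = 4) with 2-DG (log2 fold change 0.85 ± 0.24 (SE), edgeR unadjusted p = 0.00477, adjusted p = 0.524). The remaining 3 were the p24 gene *Tmed9* (0.51 ± 0.20), the translocon partner *Nomo1* (0.45 ± 0.19) and *Mia2*, an organiser of ER exit sites (0.37 ± 0.17), and all 6 had groups that did not overlap. By role, the median was 0.13 over 3 other genes of the particle and its receptor, 0.16 over 21 partners of the translocon and membrane insertion factors, 0.08 over 12 genes of COPII assembly, 0.27 over 20 cargo receptors, 0.25 over 15 COPI genes with their GTPases and 0.11 over 20 SNAREs and tethers.

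Beside these, post-Golgi and endosomal coats (clathrin, its adaptors, GGA proteins and retromer) gave a background of general trafficking. Their 32 genes had a median of 0.22, 28 with a log2 fold change above 0, and 3 higher (9.38%) and 0 lower at an unadjusted p under 0.05. Of all genes, 49.2% were above 0, and 2.42% were higher and 4.83% lower at that p. Of the genes with at least 10 CPM, 62.4% were above 0 and 3.28% were higher. The 16 ER luminal chaperones and folding enzymes, the clients of the KDEL receptors among them, had the largest median, 1.01, with 16 of 16 above 0 and 14 higher (87.5%) at an unadjusted p under 0.05. With edgeR 0 of the 16 passed an adjusted p of 0.05 (0.0% of all genes), and 12 did with DESeq2 (0.38% of all genes higher). *Hspa5*, whose upstream ERSE is printed above, had 589 ± 185 CPM (SD, n = 5) in the controls and 1177 ± 241 CPM (SD, n = 4) with 2-DG (log2 fold change 1.00 ± 0.31 (SE), edgeR unadjusted p = 0.00841, adjusted p = 0.538). The libraries were ordered differently in the chaperones and the members. The median of the chaperones over the control mean, on the log2 scale, was 1.12, 1.31, 0.91 and 0.80 in 2-DG replicates 1 to 4, and replicate 4 was the lowest 2-DG library for 9 of the 16 chaperones, whereas it was the highest for 23 of the 46 members.

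**Figure D5:**
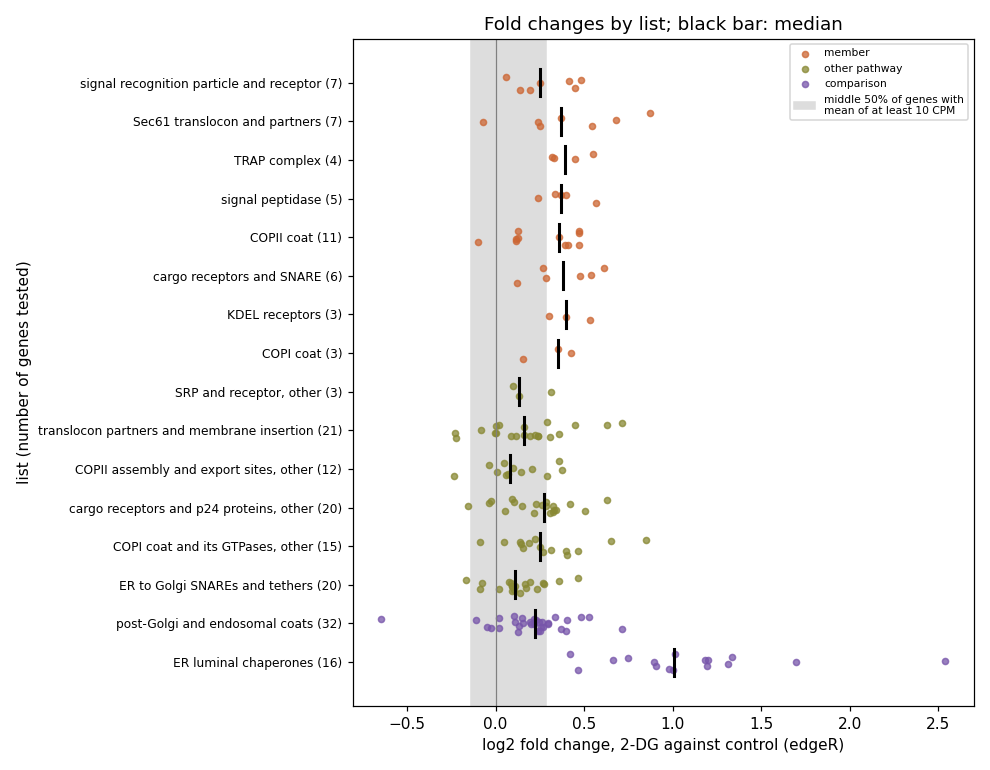
Log2 fold change of each gene (dots) in the 8 groups of members, 6 lists of other genes of the route and 2 comparison lists, with the median as a black bar and the middle 50% of the genes with a mean of at least 10 CPM shaded. The member medians lie between 0.25 and 0.40, those of the other genes between 0.08 and 0.27, and that of the ER chaperones at 1.01.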

How the data were processed

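RNA-seq libraries of mouse retinal explants (5 control, 4 with 2-DG) were made from total RNA (4 ng, 13 PCR cycles, stranded kit). They were read as pairs of 101 bases. The labels do not divide them into batches, and a difference between batches was not tested. The authors deposited estimated counts per transcript and per gene, which they made with kallisto against GRCm38 per the processing notes; how transcripts were joined into genes and the strand setting are not given in the sources used here. Also deposited, and not used here, were the authors' CPM of genes and a table of their comparison (log2 fold changes, F statistics, p-values and adjusted p-values). Gene symbols and coordinates came from GENCODE M21, which matched 99.4% of the gene identifiers.

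The estimated counts, as deposited, were rounded (moving a library total by at most 0.00377%), filtered with filterByExpr, scaled by TMM and tested with edgeR 4.0.16 (quasi-likelihood, R 4.3.3), with Benjamini-Hochberg adjustment over all 21049 genes or 62900 transcripts. The common dispersion was 0.265, a coefficient of variation of 51.5% between libraries of a group, and correlations of libraries ran from 0.877 to 0.967 within the controls and 0.897 to 0.977 within 2-DG. CPM were TMM-scaled, and TPM used annotated transcript lengths. Ratios used CPM + 0.5 and exact permutation tests. Alternatives were DESeq2 1.42.0, limma 3.58.1, sva 3.50.0 and other scalings, filters and libraries.

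The members and gene lists were chosen with earlier results of these data known. Genes named with full statistics were the 2 with the smallest p of each subgroup, members with an unadjusted p under 0.05 and no overlap, genes of the 6 paralog ratios, and 6 other pathway genes; *Sec61b*, the genes with a promoter match and the transcripts were named after their values were seen. The gene counts of the members were 0.793 to 1.79 times the sum of their transcript counts.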

Additional observations from a re-analysis of the deposited data

Results flagged for a closer look

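Within the 5 control or the 4 2-DG libraries, 10 of 104 groups of values had a highest or lowest library farther from the rest than Dixon's critical value, and chance alone gives about 1 in 20. The far library was 2-DG replicate 4 in 6 of the 10 and control replicate 2 in 2. In 2-DG replicate 4, *Srp9* was high at 83.4 CPM (other 2-DG libraries 44.3 to 48.9 CPM), *Sec62* at 276 CPM (185 to 193 CPM) and *Kdelr1* at 57.8 CPM (50.8 to 51.6 CPM). In the same library *Sec24c* was low at 128 CPM (199.97 to 204 CPM) and *Copa* at 317 CPM (419 to 428 CPM), and the log2 ratio of *Sec23b* to *Sec23a* was high at 0.63 (0.13 to 0.16). Control replicate 2 was low in *Spcs3* at 22.8 CPM (other controls 48.9 to 55.1 CPM) and in *Tmed2* at 79.0 CPM (134 to 151 CPM). *Sec61g* was low in 2-DG replicate 3 at 8.23 CPM (13.9 to 14.9 CPM), and *Ssr1* was high in 2-DG replicate 2 at 257 CPM (177 to 186 CPM).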

How the results depend on the processing

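The number of members with a log2 fold change above 0 ranged from 41 to 45 over the alternatives. Leaving out 1 library turned the sign of *Srp9*, *Srp19*, *Sec62* and *Sec24a*. Of the genes picked by the naming rule and the transcripts with an unadjusted p under 0.05, none changed the sign of its log2 fold change under the alternatives run. The side of an adjusted p of 0.05 was kept in 905 refits and changed in 17, all toward a smaller p, with DESeq2, sample quality weights or 2 surrogate variables. Counts of calls moved more, and the causes were not tested. Members with an adjusted p under 0.05 were 3 with DESeq2, 2 with limma-voom and sample quality weights and 3 with 2 surrogate variables. In the same order the other pathway genes were 3, 5 and 4, the post-Golgi coats 1, 2 and 2 and the chaperones 12, 13 and 13. Of all genes, 0.38%, 1.54% and 1.05% were higher at that adjusted p. Unweighted limma-voom gave 0 members (0.0% of all genes). Members higher at an unadjusted p under 0.05 were 5 on library size (1.39% of all genes) and 5 with upper-quartile scaling (1.53%), 21 with quality weights (10.6%), 26 with 2 surrogate variables (9.32%) and 7 without control replicate 5 and 2-DG replicate 4, an alternative added after seeing the data, as were those of the comparison lists. The other pathway genes were 3 on library size, 30 with quality weights and 24 with 2 surrogate variables. The post-Golgi coats were 1 with upper-quartile scaling, 9 with quality weights and 8 with 2 surrogate variables, and the chaperone median was 1.16 with quality weights. Without a filter, 7 member transcripts were lower (3.15% of all transcripts). From sums of transcripts, the difference in the ratio of *Sec24d* to *Sec24c* was 0.36 and of *Sar1b* to *Sar1a* 0.094.

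Leaving out 1 library at a time, members higher at an unadjusted p under 0.05 ranged from 4 (without 2-DG replicate 2) to 12. The count was 6 when control replicate 1 was dropped and 7 when either control replicate 3 or 2-DG replicate 4 was. The other pathway genes ranged from 3 (without control replicate 3 or 2-DG replicate 2) to 6. The post-Golgi coats ranged from 1 (without control replicate 4 or 5) to 5 (without control replicate 2). Of all genes, the share higher ranged from 1.35% (without control replicate 4) to 3.38% (without 2-DG replicate 4). The chaperones with an adjusted p under 0.05 ranged from 0 to 2 (without 2-DG replicate 4), with 1 without control replicate 2. Of all genes, 0.00946% and 0.0775% had an adjusted p under 0.05 in these 2 refits, in either direction. Member transcripts higher ranged from 6 (without control replicate 4 or 2-DG replicate 2) to 15, with 8 without control replicate 3 or 2-DG replicate 1, and lower from 1 (without control replicate 1, 2, 4 or 5) to 3, while the shares of all transcripts ranged from 0.700% to 2.32% higher and 1.299% to 5.23% lower. The ratio differences ranged from -0.36 to 0.13 for *Sec11c* to *Sec11a*, -0.041 to 0.16 for *Sec23b* to *Sec23a*, -0.21 to 0.22 for *Sec24d* to *Sec24c*, -0.11 to 0.038 for *Sar1b* to *Sar1a* and -0.065 to 0.21 for *Kdelr2* to *Kdelr1*. The lowest or highest of these for *Sec11c*, *Sec23b* and *Kdelr2* was the value without 2-DG replicate 4.

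The labels do not say whether libraries with the same replicate number are pairs, and the main test treated them as unpaired. Deviations from the group means of same-numbered libraries correlated at 0.45, -0.15, 0.10 and 0.21. Replicates 1 to 4 of 2-DG correlated best with control replicates 1, 3, 1 and 5. So few correlations cannot settle whether the libraries were paired. With the replicate number as a block, 9 members were higher at an unadjusted p under 0.05 (3.24% of all genes) and 0 had an adjusted p under 0.05, 1 post-Golgi gene was higher, 0 member transcripts were lower (1.24% of all transcripts) and the ratio difference of *Sec24d* to *Sec24c* was 0.22. The spread between libraries sets what can be detected, and the smallest log2 fold change of a member with an unadjusted p under 0.05 was 0.40, for *Kdelr1*.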
